A study of Mus musculus with 2 samples.

Results

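DNA replication and G1/S genes were followed in MS1 cells with and without a hairpin against Pspc1. The set held 47 genes, chosen by name for their roles in origin licensing, the replicative helicase, the polymerases, the clamp and its loaders, nucleotide synthesis and entry into S phase. All 47 were among the 11405 genes listed in the tables. MS1 is an endothelial cell line derived from mouse pancreatic islets and immortalised with a viral large T antigen, a protein known to release E2F activity in other cells. Both groups share it. Both cultures were given lentivirus. One carried a hairpin RNA directed at the bacterial LacZ gene and is labelled wild type. The other carried a hairpin against Pspc1, a paraspeckle protein gene, and is labelled as its knockdown. Poly-A RNA was sequenced from 1 library per group, so no value has a replicate error and no test between the groups was possible. The labels do not say whether the infected cells were a pool or a clone, and they give no hairpin sequence and no time after infection.

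DNA is copied once per cell cycle. In G1, the origin recognition complex, Cdc6 and Cdt1 load the ring-shaped MCM helicase onto origins. At the start of S phase, cyclin E with its kinase and the kinase Cdc7 turn the loaded rings into active helicases by adding Cdc45 and the GINS complex, and polymerases, clamp and ligase follow. Many of these genes are targets of the E2F transcription factors, which are held in check until the cell commits to divide. Their mRNA is therefore commonly read as a sign of how many cells in a culture are cycling. In bulk RNA, fewer cells of a phase and less RNA per cell cannot be told apart.

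E2F words were frequent in the promoters of the set. The classical E2F site was searched as the words TTTCCCGC, TTTCGCGC, TTTGCCGC and TTTGGCGC on both strands, in windows of 250 bases before and 50 bases after each RefSeq start site (build GRCm38.p6, the same coordinates as mm10). A window was found for 36 of the 47 genes, and some genes have several. At least 1 of the words occurred in 18 of these 36 genes (50%), against 2.6% of 27025 genes with a window and 5.08% of the 8688 listed genes with one. With the 250 bases before the start alone the counts were 12 of 36 (33.3%) and 4.22% of the listed genes. The CCAAT word bound by NF-Y, searched as CCAAT, was in 61.1% of the genes and 43.4% of listed genes. The GC box GGGCGG was in 75% and 71.8%, and the cell cycle homology word TTTGAA in 13.9% and 13.8%. The windows held 24 E2F words, of which 4 overlapped one another and 1 overlapped a CCAAT word. A match is a string of letters and not a measured binding site.

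The 6 stretches below were chosen because their words lie before the start and outside every exon in the GENCODE annotation. Each is read 5′ to 3′ on the strand of its gene, with E2F words in capitals. Mcm6 is at chr1:128359740-128359839 (minus strand) and Mcm5 at chr8:75109332-75109391 (plus), both genes of the helicase ring. Cdc6 is at chr11:98907989-98908048 (plus) and Pola1, the polymerase alpha subunit, at chrX:93632258-93632317 (minus). Dtl is at chr1:191575545-191575604 (minus) and Uhrf1, at its second listed start, at chr17:56304104-56304163 (plus). The stretches of Cdc6 and Uhrf1 lie before a RefSeq start but, between exons, inside their GENCODE genes, which begin at 98907801 and 56303321.
Mcm6: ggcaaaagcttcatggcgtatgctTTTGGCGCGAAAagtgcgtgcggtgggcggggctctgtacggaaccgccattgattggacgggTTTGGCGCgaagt
Mcm5: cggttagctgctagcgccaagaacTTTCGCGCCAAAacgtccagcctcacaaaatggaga
Cdc6: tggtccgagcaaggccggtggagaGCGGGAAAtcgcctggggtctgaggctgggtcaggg
Pola1: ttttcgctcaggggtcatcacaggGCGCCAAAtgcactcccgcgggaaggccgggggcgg
Dtl: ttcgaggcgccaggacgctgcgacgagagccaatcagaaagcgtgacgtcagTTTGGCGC
Uhrf1: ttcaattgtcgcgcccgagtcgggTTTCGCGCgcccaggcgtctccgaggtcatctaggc
In Mcm6 and Mcm5 a word on each strand overlap into 1 longer block, 110 and 153 bases before the start, and Mcm6 has a further word 47 bases before it. These 6 genes did not share a ratio: log2 of the knockdown value over the control value was 0.20 for Mcm5 and -0.02 for Cdc6, and -0.23, -0.04, -0.45 and -0.77 for Mcm6, Uhrf1, Dtl and Pola1. Among genes with a window whose 2 values averaged 10 or more, the 13 with a word had a median log2 ratio of -0.07 (-0.89 to 0.20). The 18 without one had a median of -0.12 (-0.40 to 0.25), and the ranges overlap over most of their length.

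The targeted gene, Pspc1, had 28.8 in the control and 3.78 in the knockdown library, 7.62-fold less (log2 ratio -2.77, interval -3.15 to -2.71). Values are reads scaled by the authors with 1 factor per library, and they rest on 64009912 reads over the listed genes in the control and 53518762 in the knockdown library. Levels are given control first. The log2 ratio is log2 of knockdown plus 0.5 over control plus 0.5. Intervals are 95% exact counting intervals of the ratio without that pseudocount, computed from the reads behind each value, and they cover counting error only and not the spread between cultures. Of 10 endothelial markers 9 were listed, with a summed level of 5233.3 and 4957.8, most of it from Pecam1 (2258 and 2175) and Tie1 (1080 and 1355, log2 ratio 0.33). Within that sum Cdh5 had 859.4 and 511.2 (-0.75), and Kdr, Tek and Erg had log2 ratios of -0.94, -0.89 and -0.49. Fibroblast markers summed to 1.9 and 3.4 (2 of 8 listed) and epithelial markers to 47.7 and 152.1 (2 of 8, Krt18 and Krt19). Of 8 leukocyte markers 2 were listed, Cd68 at 102.7 and 123.7 and Cd14 at 1.07 and 1.34. None of 8 islet endocrine markers was listed. The part of these in the results was not tested.

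Replication genes differed little between the libraries, and most of the small differences pointed down. The lowest log2 ratios were those of Hells (-1.45), Mcm7 (-0.89), Pola1 (-0.77) and Ccne2 (-0.63), of which Mcm7 alone had a mean value above 10. For the scarce genes this order depends on the pseudocount: with 5 in place of 0.5 the lowest were Mcm7 (-0.88), Hells (-0.65), Pole (-0.49) and Mcm4 (-0.48), and Pola1 and Ccne2 had -0.23 and -0.18. The highest were those of Ung (0.25), Mcm5 (0.20), Gins2 (0.15) and Fen1 (0.15). Of the 40 genes whose mean value reached 10, 31 had a log2 ratio below 0, or 77.5%, against 48.9% of all 7390 listed genes of that mean. Their median was -0.11, against 0.01 for all. The ratios ran from -0.89 (Mcm7) to 0.25 (Ung), and 37 of the 40 lay within 0.5 log2 of equality, as did 84.3% of all. None of the 25 genes whose mean reached 50 was 2-fold lower or 2-fold higher, where 0.937% and 0.551% of all genes of that mean were. A smaller threshold of 0.32 on the log2 scale, again at a mean of 10 or more, called 5 of 40 lower (12.5%, against 18.5% of all), namely Mcm7, Mcm4, Pole, Dtl and Rfc5. None was called higher, against 14.6% of all. At the deposited scaling the share below 0 was thus above the background, while the share past the lower threshold was not. The second part depended on the setting. With equal total reads 16 of 40 passed the lower threshold, a larger share than the 25.7% of all genes. After a correction for exon length and GC content 7 of 40 did, slightly above the 15.2% of all.

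The side of 0 was not fixed for the genes nearest to it. The libraries can also be set to equal total reads, which shifts every log2 ratio by -0.104, or scaled by a trimmed mean of M values or by median of ratios, which shifts it by 0.042 and 0.050. Under all 4 scalings 24 of the 40 genes lay below 0 and 4 above it (Mcm5, Gins2, Fen1 and Ung, of which Fen1 had -0.04 after a correction for exon length and GC content), while 12 changed side. These were Cdc6, Cdt1, Mcm2, Mcm3, Gins4, Rfc2, Rfc3, Prim1, Rrm1, Rrm2, Uhrf1 and E2f1. Taken 1 scaling at a time, 36 of the 40 lay below 0 with equal totals, against 61.7% of all genes. By median of ratios 24 did, against 43.2%, and by the trimmed mean 26, against 44.0%. With equal totals 16 of 40 genes lay past the lower threshold of 0.32, a larger share than the 25.7% of all genes. None lay past the upper one, against 8.5% of all.

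**Figure D1:**
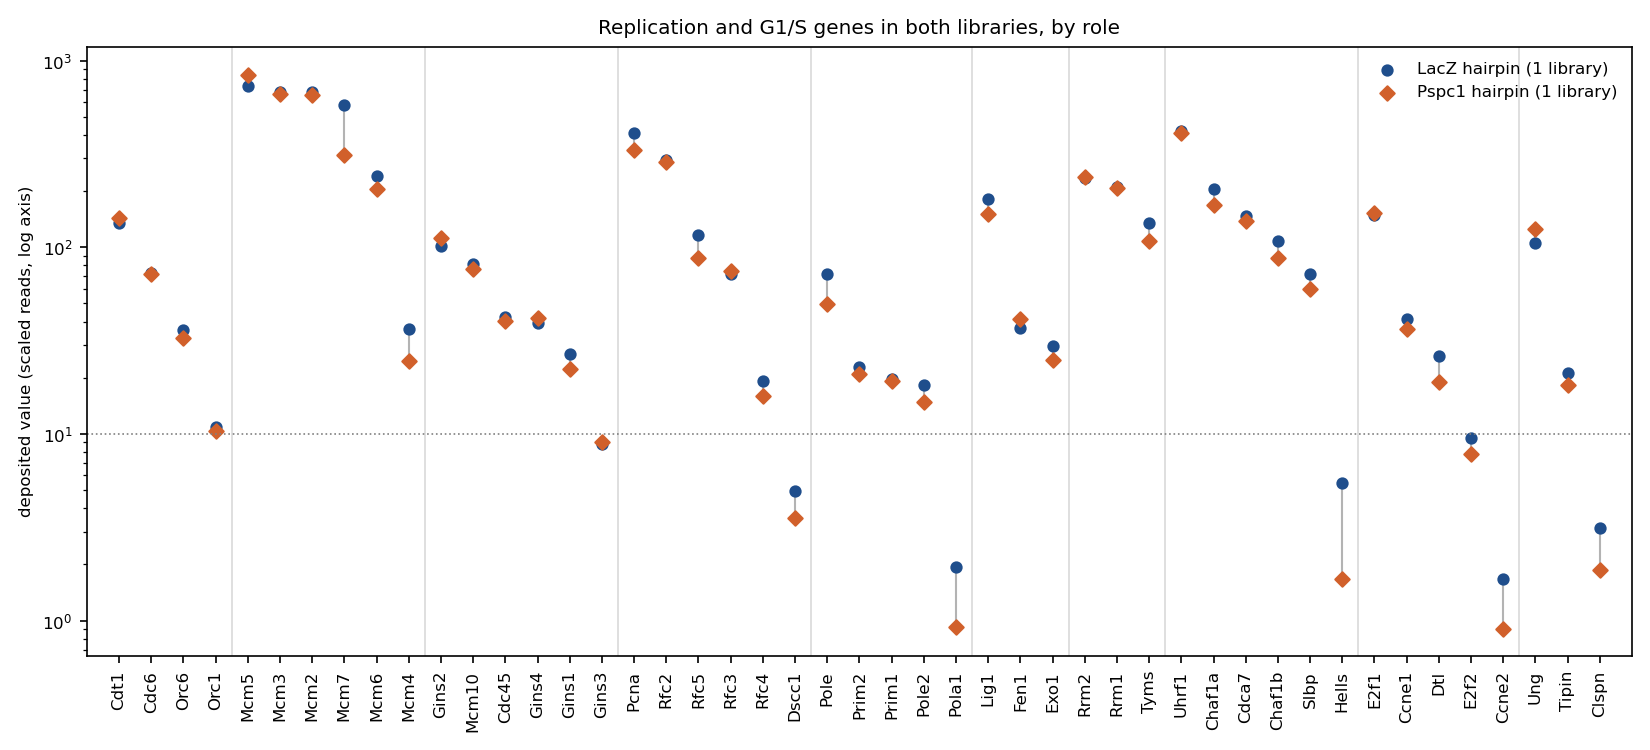
Deposited values of the 47 genes in the control library (circles) and the knockdown library (diamonds) on a log axis, grouped by role with grey lines between roles and a dotted line at 10. Mcm7 (581.1 and 313.4) has the widest gap among abundant genes, while Hells (5.46 and 1.67) has the widest of all at a low level.

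The licensing genes were level in both libraries. Cdt1, which brings the helicase to origins and is destroyed once S phase begins, had 134.3 and 142.9 (log2 ratio 0.09, interval 0.04 to 0.13, but -0.01 with equal totals). Cdc6, the ATPase that works with it, had 72.8 and 72.0 (-0.02, interval -0.08 to 0.05). Orc6, a subunit of the origin recognition complex, had 36.2 and 32.8, and Orc1, its largest subunit, 10.9 and 10.4. The 4 ratios ran from -0.14 to 0.09, none past 0.32, with Orc6 the lowest of them. Exons of Orc6 overlap those of Vps35 by 171 bp, and Vps35 had 13.0 and 6.91 (log2 ratio -0.86).

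The 6 subunits of the MCM ring did not share 1 ratio. Mcm7 (ENSMUSG00000029730, mm10 chromosome 5, 138164583 to 138172422, minus strand) had 581.1 in the control and 313.4 in the knockdown library, 1.85-fold lower. Its log2 ratio was -0.89 (interval -0.92 to -0.86, from 37921 and 15908 reads), and among the 3629 listed genes whose mean reached 50 only 48 had a lower one. Mcm4 (mm10 chromosome 16, 15623897 to 15637400, minus strand) had 36.4 and 24.7, 1.47-fold lower (log2 ratio -0.55, interval -0.66 to -0.46). Mcm6 had 242.4 and 206.4 (log2 ratio -0.23). Mcm2, at 675.4 and 653.2, and Mcm3, at 679.8 and 662.7, had log2 ratios of -0.05 and -0.04. Mcm5 (mm10 chromosome 8, 75109569 to 75128439, plus strand) went the other way, with 731.1 and 840.6 (log2 ratio 0.20, interval 0.18 to 0.22, 0.10 with equal totals). The other 5 subunits summed to 2365 and 2388, nearly equal, while Mcm7 differed by more than any of them.

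Per kilobase of exon, the ring subunits also stood at unequal levels. In the control library the level per kilobase was 183.1 for Mcm5, 181.2 for Mcm3, 131.3 for Mcm7, 97.1 for Mcm2, 52.0 for Mcm6 and 10.1 for Mcm4. In the knockdown library it was 210.5, 176.6, 70.8, 93.9, 44.2 and 6.88 for the same genes. On this scale, which rests on merged exon lengths, Mcm7 thus passed from above Mcm2 to below it. The order of the other subunits was kept. In the deposited values Mcm7 was below Mcm2 in both libraries. The merged exons of Mcm7 (4426 bp) overlap those of Ap4m1 by 321 bp and of Cops6 by 64 bp, and hold the microRNA genes Mir25 and Mir93. Cops6, a signalosome subunit gene, had 544.7 and 508.5 and Ap4m1 21.6 and 24.3, log2 ratios of -0.10 and 0.17, so neither neighbour had a ratio near that of Mcm7. How reads of the shared bases were assigned is not stated in the labels.

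The factors that switch the ring on were closer to equality. Gins2 had 101.5 and 112.5 (log2 ratio 0.15, interval 0.10 to 0.20, but 0.04 with equal totals and 0.04 with the length and GC correction), Gins4 39.5 and 41.6 (0.07, but -0.03 with equal totals) and Gins1 26.9 and 22.3 (-0.27, interval -0.38 to -0.17). Of the 4097 exonic bp of Gins2, 2758 overlap Gse1, which had 6.11 and 5.54. Gins3, the remaining subunit of that complex, had 8.83 and 9.02. Cdc45, which joins GINS and the MCM ring in the moving helicase, had 42.4 and 40.5. Mcm10, needed to start unwinding, had 81.5 and 76.2. None of the 5 genes with a mean of 10 or more passed 0.32 as deposited, and both directions were seen within GINS. With the length and GC correction Gins1 had -0.34, past that threshold.

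**Figure D2:**
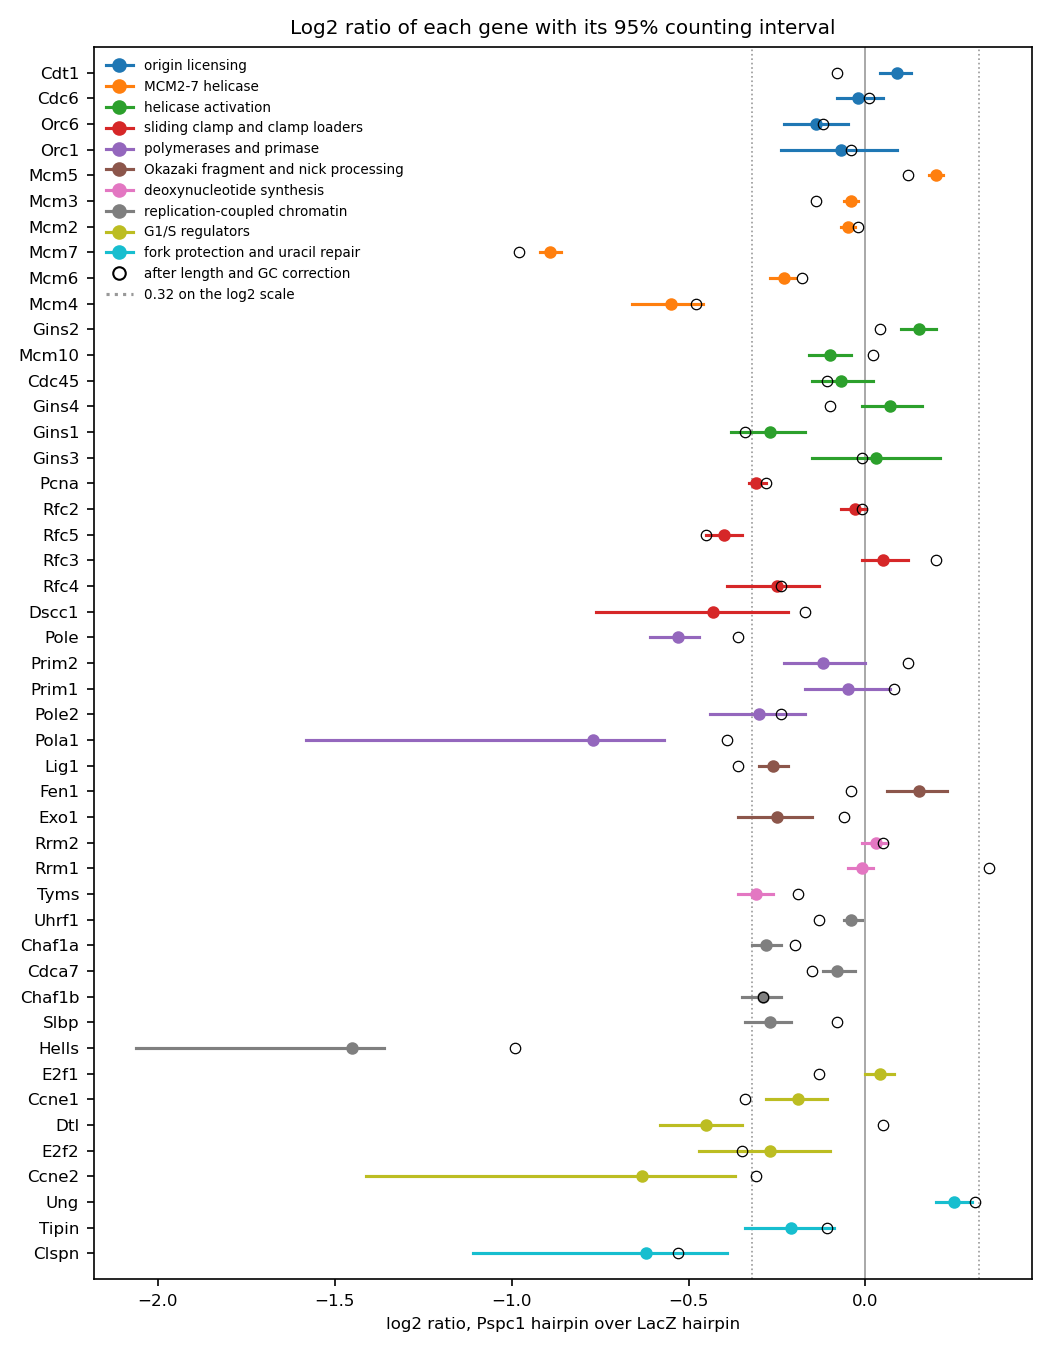
Log2 ratio of each gene (filled circles, coloured by role) with its 95% counting interval (bars), and the same ratio after a correction for exon length and GC content (open circles). Dotted lines mark 0.32 on either side of 0: the ratios of Mcm7, Mcm4, Rfc5, Pole and Dtl lie left of the lower line at a mean of at least 10. With the correction that of Dtl moves to 0.05, and those of Gins1, Lig1 and Ccne1 move left of the lower line.

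Pcna and its loaders were lower or level. Pcna, the sliding clamp that holds polymerases on DNA, had 409.5 and 331.2, 1.24-fold lower and just short of the threshold (log2 ratio -0.31, interval -0.33 to -0.28). Of the small subunits of the clamp loader, Rfc5 had 116.2 and 88.0 (1.32-fold lower, log2 ratio -0.40, interval -0.45 to -0.35) and Rfc4 19.2 and 16.1 (-0.25). Rfc2, at 294.7 and 287.7, and Rfc3, at 71.6 and 74.3, had log2 ratios of -0.03 and 0.05. Dscc1, a subunit of an alternative loader used in sister chromatid cohesion, had only 4.93 and 3.53. Exons of Rfc5 overlap those of Wsb2 by 499 bp. Wsb2 had 414.0 and 485.8, the opposite direction. Exons of Rfc2 overlap those of Lat2 by 952 bp, and exons of Rfc4 those of Eif4a2 by 194 bp. Lat2 had 10.5 and 6.42 (log2 ratio -0.66) and Eif4a2 54.7 and 45.5 (-0.26), the same direction as Rfc2 and Rfc4.

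All 4 polymerase and primase genes with a mean of 10 or more had a log2 ratio below 0 as deposited, although only Pole passed 0.32 and the sign of 2 of them turned with the length and GC correction. Pole, the catalytic subunit of the leading-strand polymerase epsilon, had 72.2 and 49.8 (1.45-fold lower, log2 ratio -0.53, interval -0.61 to -0.47, and -0.36 after that correction). An antisense gene overlaps 78 bp of its exons. Its partner Pole2 had 18.3 and 14.8 (-0.30, interval -0.44 to -0.17). The primase subunits Prim1, at 19.8 and 19.2, and Prim2, with 1487 and 1066 reads, had log2 ratios of -0.05 and -0.12, which the correction turned to 0.08 and 0.12. Pola1, the catalytic subunit of polymerase alpha, was listed at 1.93 and 0.926, from 126 and 47 reads (interval -1.58 to -0.57).

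Genes that finish the lagging strand and supply its building blocks showed small differences in both directions. Lig1, the ligase that joins Okazaki fragments, had 180.6 and 150.7 (log2 ratio -0.26, interval -0.30 to -0.22, and -0.36 with the length and GC correction). Fen1, the nuclease that trims their flaps, had 37.0 and 41.1 (0.15, but -0.04 with the correction), and 1909 of its 2422 exonic bp overlap an antisense gene. Exo1, a nuclease of mismatch repair and end resection, had 29.7 and 24.9 (-0.25, but -0.06 with the correction). In nucleotide synthesis, the ribonucleotide reductase subunits Rrm1 (210.8 and 208.6) and Rrm2 (234.3 and 239.1) were level, while thymidylate synthase, Tyms, had 134.2 and 108.1 (-0.31, interval -0.36 to -0.26). Rrm2 is the subunit whose level is known to follow S phase. None of these 6 genes passed 0.32 as deposited.

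Chromatin assembly genes of mean 10 or more lay below 0 as deposited without passing 0.32, and Uhrf1, nearest to 0, changed side with the scaling. The large subunits of chromatin assembly factor, which places histones behind the fork, had near-equal ratios: Chaf1a had 204.8 and 168.7 (log2 ratio -0.28) and Chaf1b 107.6 and 87.8 (-0.29, interval -0.35 to -0.24). Of the 8854 exonic bp of Chaf1a, 4648 overlap Ubxn6, which had 31.6 and 35.9 (log2 ratio 0.18). Slbp, which binds the stem loop of replication-dependent histone mRNA, had 72.3 and 59.8 (-0.27, but -0.08 with the length and GC correction). Uhrf1, which guides maintenance methylation, had 419.8 and 409.4 (-0.04), and Cdca7, a partner of Hells, 146.5 and 138.9 (-0.08). Hells, a chromatin remodeller, had the lowest ratio of the 47 genes at a pseudocount of 0.5, with 5.46 and 1.67 from 356 and 85 reads. That is 3.26-fold less (log2 ratio -1.45 with the pseudocount, interval -2.06 to -1.36), but its mean of 3.57 is under the minimum of both rules. It was -0.65 with a pseudocount of 5, above Mcm7, and -0.99 with the length and GC correction, beside -0.98 for Mcm7.

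Regulators of the G1/S step were level at the top and lower among the scarce genes. That trend was not particular to them: Spearman's rho of the ratio to the mean value was 0.25 over the 7390 genes whose mean reached 10. Over the 40 replication genes of that mean it was 0.24, and over all 47, scarce ones included, 0.41. E2f1, the activator of this programme, had 148.6 and 152.8 (log2 ratio 0.04, with an interval that holds 0, and -0.06 with equal totals). Ccne1, cyclin E1, had 41.5 and 36.3 (-0.19, and -0.34 with the length and GC correction). Dtl, the substrate receptor that marks Cdt1 for destruction in S phase, had 26.2 and 19.0 (1.38-fold lower, log2 ratio -0.45), but 0.05 after the length and GC correction. It has the longest exonic sequence of the 47 genes, at 13709 bp. E2f2 had 9.47 and 7.76 and Ccne2, cyclin E2, 1.67 and 0.906 (from 109 and 46 reads). Exons of Ccne2 overlap those of Ints8 by 609 bp, and Ints8 had 2.90 and 1.60 (log2 ratio -0.7). In fork protection and repair, Ung, the uracil glycosylase, had 105.2 and 125.4, the highest ratio of the set (0.25, interval 0.20 to 0.30, 0.15 with equal totals). Tipin, a fork protection protein, had 21.1 and 18.2 (-0.21), and Clspn, the checkpoint mediator claspin, 3.14 and 1.87 (log2 ratio -0.62, interval -1.11 to -0.39, from 205 and 95 reads).

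The 7 genes with a mean under 10 were Gins3, E2f2, Dscc1, Hells, Clspn, Pola1 and Ccne2, with means from 8.92 down to 1.29. Of these 6 had a log2 ratio below 0, and no share of all genes at that low level is given beside it. Scarce genes of the whole list also lay below 0 more often. Of all genes, 3611 of 7390 lay below 0 at a mean of 10 or more (48.9%). Without that minimum 6252 of 11405 did (54.8%), so the share among genes under 10 alone was above 54.8%. Over all 47 genes, low ones included, 37 ratios were below 0, while 54.8% of all 11405 listed genes were, and the median was -0.19, against -0.05. The fewest reads behind a value were 46, and the widest interval spanned 1.04 log2, against a median width of 0.13. At the deposited scaling, the counting interval lay below 0 for 32 genes, above it for 5, and held 0 for 10. No such share over all genes is given, so these counts have no background beside them. The intervals do not cover the choice of scaling: Mcm2, Mcm3, Rfc2 and Uhrf1, with intervals below 0, and Cdt1, with one above it, changed side with it.

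Base composition and length moved with the ratio. Ranked over the genes whose mean reached 10, the ratio had a Spearman's rho of 0.32 to GC content (7387 genes with a GC value) and -0.35 to exon length (7390 genes). Over the 40 replication genes these were 0.28 and -0.20, as a description over genes that share both libraries. The replication genes had a median GC content of 48.9%, against 51.3% for all, and a median exon length of 4045 bp against 4273.5 bp. All genes were split by GC into 3 groups of equal size. In the lowest (33.9 to 48.5%) the median log2 ratio was -0.15, and that of the 19 replication genes in it -0.23. In the middle group (48.5 to 53.9%) these were 0.04 and -0.07, again for 19 replication genes. The part of base composition in the results was not tested beyond the correction. After a correction of every gene for both properties, 29 of the 40 lay below 0, against 51.0% of all genes, and their median was -0.11, against -0.01. With it Mcm7 had a log2 ratio of -0.98, and Rrm1 (11012 bp, 43.3% GC) moved from -0.01 to 0.35.

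**Figure D3:**
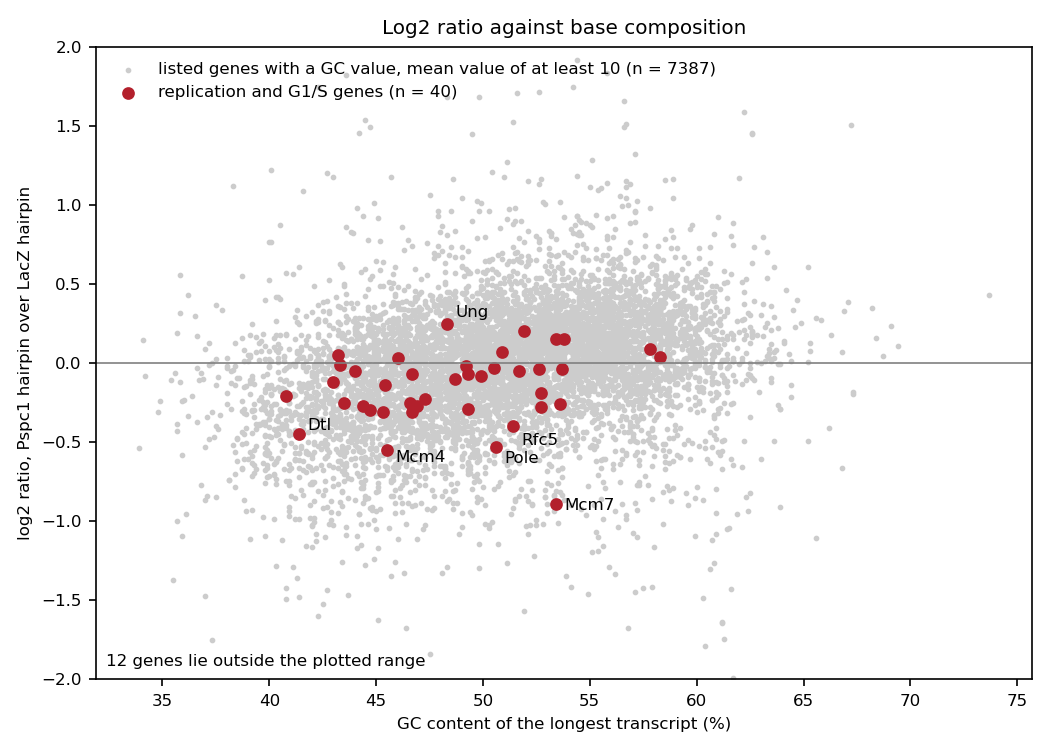
Log2 ratio against GC content of the longest transcript for the listed genes whose mean reached 10 and that have a GC value (grey, n = 7387) and the 40 replication genes (red); 12 grey points lie outside the plotted range. The cloud rises with GC, 38 of the 40 red points lie between 40.8 and 53.8% GC, and Mcm7 (53.4% GC) lies below every other red point.

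Other genes of the same pathways, listed by role, had list medians from -0.18 to 0.00. Among other replication factors 21 of 34 had a mean of at least 10, and 12 of them lay below 0, with 6 past 0.32 below and none above (median -0.09). In percent that is 57.1 below 0 and 28.6 past the lower threshold, against 48.9 and 18.5 of all genes. The lists that follow are read against the same shares and against 14.6% of all genes higher. Topbp1, a scaffold for helicase activation, had 18.9 and 12.3 (log2 ratio -0.60). Dbf4, the activator of Cdc7, had 16.2 and 10.8 (-0.57), and Pole4, a small subunit of polymerase epsilon, 138.9 and 95.2 (-0.54). In other nucleotide synthesis 13 of 23 lay below 0, with 5 lower and 1 higher (21.7% and 4.3%; median -0.04). Gmps, which makes GMP, had 19.1 and 12.3, Adss, of the AMP branch, 58.7 and 40.2, and Samhd1, which degrades deoxynucleotides, 37.6 and 27.6. In S phase chromatin and methylation 8 of 10 lay below 0, with 3 of the 10 lower and 1 higher (median -0.18). Ezh2, the Polycomb methyltransferase, had 18.0 and 11.7 and Nasp, a histone chaperone, 68.1 and 51.1, while the histone variant gene H2afx had 132.8 and 192.0 (log2 ratio 0.53).

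Cell cycle regulators upstream differed in both directions. Of 20 genes of the G1 cyclins, their kinases and inhibitors and the E2F family with a mean of 10 or more, 11 lay below 0, with 3 lower and 1 higher past 0.32 (15.0% and 5.0%, against 18.5% and 14.6% of all genes; median -0.06). Ccnd3, cyclin D3, had 250.6 and 126.0, 1.99-fold lower (log2 ratio -0.99, interval -1.03 to -0.95), and E2f6, a repressor of the E2F family, 45.0 and 32.0 (-0.49). Cdkn1a, which encodes the CDK inhibitor p21, had 500.5 and 838.6, 1.68-fold higher (0.74). In the S phase checkpoint list 7 of 12 lay below 0, 4 lower past 0.32 (33.3%, against 18.5% of all) and none higher (median 0.00). There Hus1, of the checkpoint clamp, had 20.95 and 15.5 (log2 ratio -0.42). Of 35 mitosis genes 23 had a mean of 10 or more, and 13 of these lay below 0, with 4 lower and 2 higher (17.4% and 8.7%; median -0.01). The mitosis genes under that mean all lay below 0, with log2 ratios of -0.25 to -1.43. Scarce genes of the whole list also lay below 0 more often: 54.8% of all genes did without the minimum, against 48.9% with it. Top2a, topoisomerase II alpha, had 25.99 and 13.7, Anln, the cytokinesis protein anillin, 35.1 and 21.3, and Cenpa, the centromeric histone, 125.6 and 224.8. Whether the replication genes differ from these lists cannot be tested with 1 library per group.

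**Figure D4:**
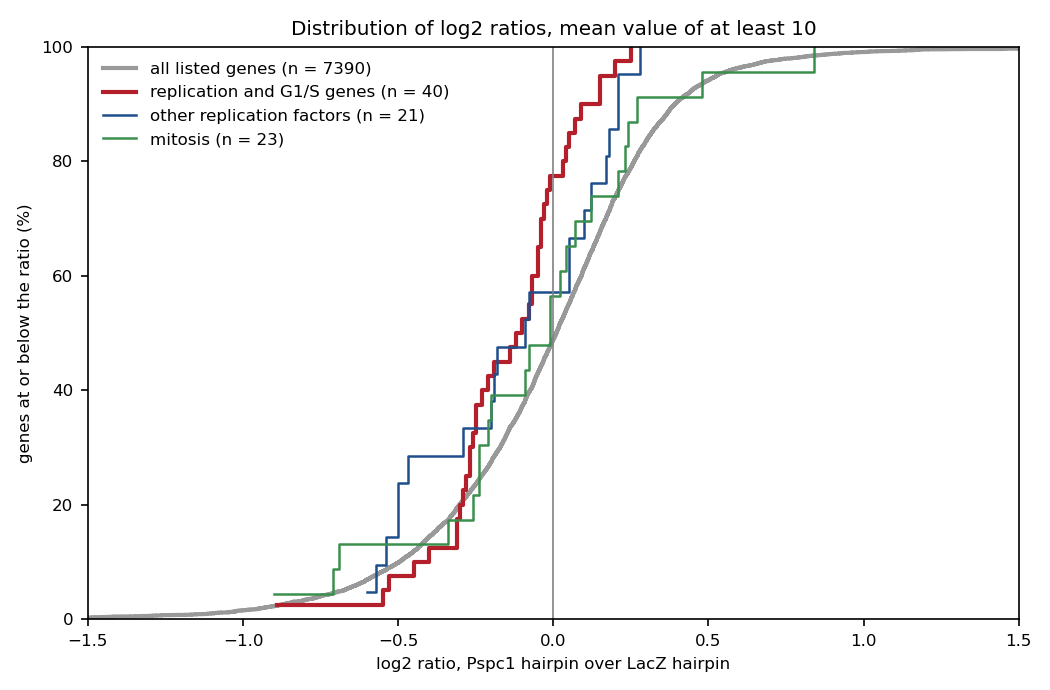
Cumulative share of genes (%) at or below each log2 ratio, for all listed genes (grey), the replication and G1/S genes (red), other replication factors (blue) and mitosis genes (green), each with a mean of at least 10. The red curve reaches 77.5% at 0, where the grey one is at 48.9%, and ends at 0.25.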

How the data were processed

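RNA of 1 library per group was sequenced after poly-A enrichment, with the NEBNext Ultra kit per the labels' protocols. Strand marking is not stated. The submitters' processing notes name Trimmomatic 0.39, HISAT2 2.1.0, featureCounts 2.0.0, DESeq 1.39.0 and build mm10, without role or order. The deposited values are a scaled signal per gene: within 0.01 reads, 100.0% were whole multiples of 1 step per library (0.0153 control, 0.0197 knockdown), and 1 step was taken as 1 read. The reads and counting intervals rest on that reading of the values, which no label states. Log2 ratios (pseudocount 0.5) used the values as the authors deposited them. No test was run, since each group has 1 library, and no p-value is given. The steps were tested on simulated data.

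The 47 genes, the lists, roles and naming rule (all members by role, up to 3 genes with the largest absolute ratio per other list) were chosen with earlier results of these data known. Some genes that the rule names in the S phase checkpoint list are not reported here. Positions, merged exon lengths and GC content of the longest transcript came from GENCODE M21, promoters from RefSeq. The correction for length and GC was a cubic surface fitted over all listed genes. Alternatives covered pseudocount, scaling, minimum mean, exon overlap and promoter window. Python 3.11.15, numpy 2.4.6, pandas 2.3.3, scipy 1.17.1 and matplotlib 3.10.9 were used.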

Additional observations from a re-analysis of the deposited data

How the results depend on the processing

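The 2-fold counts of 0 lower and 0 higher replication genes held under every scaling, both other pseudocounts, the length and GC correction and a minimum mean of 20. With no minimum 1 gene, Hells, was 2-fold lower. The count of 5 genes past 0.32 on the log2 scale below became 16 with equal total reads, where 25.7% of all genes were. It became 10 of 47 with no minimum mean, where 26.6% were. With the length and GC correction it became 7, where 15.2% of all genes were, with Dtl out and Gins1, Lig1 and Ccne1 in. Without the genes whose exons overlap another gene, 16 of the 47, it became 2 (Mcm4 and Dtl). No share of all genes is given for that setting. The count of 0 past 0.32 above became 1 (Rrm1) with the length and GC correction. Under that correction the log2 ratio of Dtl turned from -0.45 to 0.05, and the cause was not tested. The median log2 ratio of the 40 genes stayed below 0 under every alternative run, from -0.21 with equal total reads to -0.06 with median-of-ratios scaling, a trimmed mean of M values, or without genes of overlapping exons. Its distance from the median of all genes ran from -0.14 to -0.10 over the settings of scaling, pseudocount, correction and minimum. The median of the replication genes was -0.10 without Mcm7, a setting added after the data were seen. No paired analysis was possible because each group has 1 library. For the same reason no library could be left out. Depth limits the 7 genes of mean under 10, whose intervals are widest, and only counting error could be measured.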
